A study of Mus musculus with 16 samples.

Results

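Gene expression in the CA1 subregion of the dorsal hippocampus was compared between mice trained in active place avoidance (APA) and untrained mice. The comparison used the 6 of the 16 bulk RNA-seq libraries that the labels assign to CA1, 3 from trained and 3 from untrained animals, and every gene in them. All animals were adult ArcCreERT2::eYFPflx mice on a C57BL/6 background, a line in which an inducible Cre under the Arc promoter can switch on a yellow fluorescent protein in active neurons. The methods give this line for trained and untrained animals alike, and no genotype of single animals. Trained mice learned to stay out of a shock zone on a rotating arena, whereas untrained mice walked the same arena with the shock always off. The tissue was dissected by hand from coronal slices after a retention test given without shock, and the pieces of each animal were pooled by subregion, so each library is 1 animal. The comparison asks which transcripts differ after recall of the place memory. Learning the place and receiving the shocks cannot be told apart in this design.

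CA1 pyramidal neurons are the output stage of the hippocampal circuit: they receive Schaffer collaterals from CA3 on their apical dendrites and project to the subiculum and cortex. A glutamatergic synapse is built from an active zone, where scaffold proteins hold calcium channels and primed vesicles at the presynaptic membrane, and a postsynaptic density, where other scaffolds hold AMPA and NMDA receptors against the actin cytoskeleton. In neurons, firing induces immediate early genes within minutes, and their transcripts fall again over the following hours. They include transcription factors such as Fos and Egr1 and effectors such as Arc and Homer1. In a dissected piece of tissue, fewer cells of a type and less RNA per cell cannot be told apart.

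Each value given is a normalized estimated count. It is not divided by gene length, so values are compared between libraries and not between genes. Differences are trained minus untrained on log2(value + 2), from a limma fit of the 6 libraries with its standard error (SE), and "called" means an adjusted p under 0.05 over all 13588 genes that reached a value of 10 in at least 3 of the 6 libraries. The scale understates the change of genes at low values. Leaving out 1 library at a time was used as a check: where a gene given with its own statistics then lost its call, its adjusted p is given "without trained 2" and so on, and where a count is given as a range, the library behind each end is named. The p-values measure the spread among these animals.

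The libraries labelled CA1 were first set against their labels. Xist, the RNA that silences one X in female cells, was at 17310, 19318 and 18314 in trained and 26.1, 52.4 and 35.7 in untrained libraries. The Y-linked Ddx3y was at 70.9, 9.09 and 101 in trained and 553, 484 and 498 in untrained libraries. The methods give 2 females and 1 male among the trained and 1 female and 2 males among the untrained animals, whereas in CA1 all trained libraries were high and all untrained libraries low in Xist, so sex-linked transcripts and training separated the same libraries and cannot be told apart here. A score of these transcripts, the mean log2 of Y-linked genes minus the log2 of Xist, also split the groups in the other subregions. In CA3 and DG it was -12.7 to -5.53 in trained and 2.55 to 3.66 in untrained libraries, except CA3 untrained library 1 (-6.19). When this score was added to a fit of all 16 libraries, 0 genes were called by limma, and 1180 had an unadjusted p under 0.05. That fit keeps the 6 group means, so the slope of the score comes only from differences within groups. The widest was between the untrained CA3 libraries (-6.19 and 3.24). The CA1 groups lay further apart (2.39 to 3.47 in untrained and -11.4 to -8.11 in trained). The fit thus cannot decide what the score contributes, and signs and medians that turn in it below share this limit. Of 7 tested X genes known to escape inactivation, 4 were called higher, and all 7 had a positive difference, with a median log2 fold change of 0.29. The 4 called were Eif2s3x (0.41, SE 0.059, adjusted p = 0.000277), Ddx3x (0.30, SE 0.051, adjusted p = 0.00158), Kdm5c (0.29, SE 0.064, adjusted p = 0.0102; 0.0591 without trained 2 and 0.0886 without untrained 1) and Kdm6a (0.39, SE 0.088, adjusted p = 0.0122; 0.0574 without trained 1). On the whole X chromosome 16 of 482 tested genes were called, 3.32%, against 5.23% of all genes. The trained CA1 libraries also listed more genes at 0, 8323 to 9759 against 3124 to 5425 in the untrained ones. A rough depth, which takes the most frequent low value of a library as 1 read, overlapped. It was about 2550000 to 9880000 reads in trained and 4660000 to 12710000 in untrained libraries.

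Markers of CA1 and of CA2 and CA3 differed in sum between trained and untrained libraries, whereas those of granule cells overlapped. The 14 CA1 pyramidal markers summed to 4183 to 4642 in trained CA1 and to 6028 to 8916 in untrained CA1, and in the 10 CA3 and DG libraries they summed to 2928 to 4769. Of the 14, 4 were called lower and 1 (Ptgs2) higher, with a median log2 fold change of -0.80. The number lower was 3 without trained library 2 or 3 and 7 without untrained library 2, and blocking on the replicate gave 9. Fibcd1, a receptor gene used to mark CA1, was at 409, 504 and 502 in trained and 1250.5, 921 and 1417 in untrained libraries. All 3 untrained libraries exceeded every other library of the series, of which CA3 and DG had 210.4 to 685 (log2 fold change -1.32, SE 0.18, adjusted p = 0.0139; adjusted p 0.0779 without trained 3). Wfs1, the wolframin gene that marks dorsal CA1, was at 472, 619 and 681 in trained and 746, 1009 and 1663 in untrained libraries and was not called (adjusted p = 0.312). The 20 CA2 and CA3 markers summed to 11116 to 11793 in trained and 8302 to 9078 in untrained CA1, with 8 called higher and 1 lower. They summed to 9247 to 14426 in CA3 and 10996 to 13578 in DG, so they did not separate these 2 subregions, and trained CA1 lay within both ranges. Much of each CA1 sum came from Chgb, whose values are given below. The lower member was Coch (log2 fold change -1.50). Nectin3, an adhesion molecule of CA3 mossy fibre contacts, was at 465, 418 and 498 in trained and 251, 262 and 257 in untrained libraries (log2 fold change 0.83, SE 0.092, adjusted p = 2.46e-05), against 285 to 608 in CA3 and DG. Granule cell markers were not low in any of the CA1 libraries. Prox1, the transcription factor that defines granule cells of the dentate gyrus, was at 3483 to 3618 in trained and 3052 to 3861 in untrained CA1, against 3292 to 3367 in trained and 4118 to 4183 in untrained DG. The 17 granule markers summed to 18267 to 22083 in the libraries labelled CA1 and 19312 to 24392 in those labelled DG, which overlap, and of the CA1 libraries the untrained ones alone stood above the other subregions in CA1 markers. The part of the dissected tissue's makeup in the differences that follow was not tested.

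**Figure D1:**
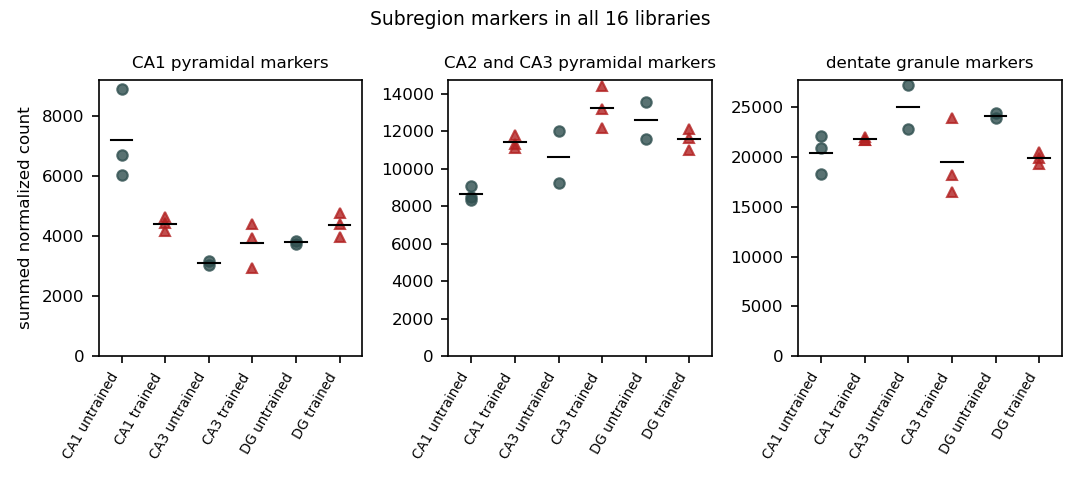
Summed normalized counts of the 14 CA1, 20 CA2 and CA3 and 17 dentate granule marker genes in each of the 16 libraries (points, circles untrained and triangles trained), with the group mean as a line. The 3 untrained CA1 libraries lie above all others in CA1 markers and the trained CA1 libraries lie near CA3 and DG, while granule markers are of similar size in every group.

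This placement of the untrained libraries was not limited to markers. Of the 479 genes called higher, 115 (24%) had all 3 untrained CA1 libraries below all 13 other libraries, whereas 20 (4.18%) had all 3 trained CA1 libraries above all others. Of the 231 genes called lower, 79 (34.2%) had the untrained CA1 libraries above all others and 8 (3.46%) had the trained CA1 libraries below all others. A call already requires the CA1 groups to lie apart, so these shares describe the called genes only.

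In CA1, 710 of 13588 genes were called between trained and untrained mice, 5.23% of those tested. Of these, 479 (3.53%) were higher and 231 (1.7%) lower in trained mice. Most differences were small: the median absolute log2 fold change was 0.38 for genes called higher and 0.57 for genes called lower, and 41 higher and 58 lower genes differed by at least 1. Of the 58 large decreases, 51 had a mean value under 50, in the range where the groups differ in genes listed at 0. All 479 higher and 229 of the 231 lower genes had groups that did not overlap, against 12.9% (above) and 11.1% (below) of all genes tested. Single animals weighed on the count: it was 392 without trained library 2 and 339 without untrained library 1, and it was 905 without untrained library 3. The share called higher grew with the mean value, from 0.795% of genes at 63.9 or less to 8.51% of genes above 532, and the lists that follow are set only against the 3.53% over all genes. Of the pathway lists, those of the active zone, vesicle fusion, postsynaptic scaffolds, guidance and cytoskeleton had the highest shares called higher. Other synaptic lists had smaller shares, and that of GABA-A receptors and inhibitory synapses had none called higher. The immediate early list held more genes called lower than any other pathway list.

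**Figure D2:**
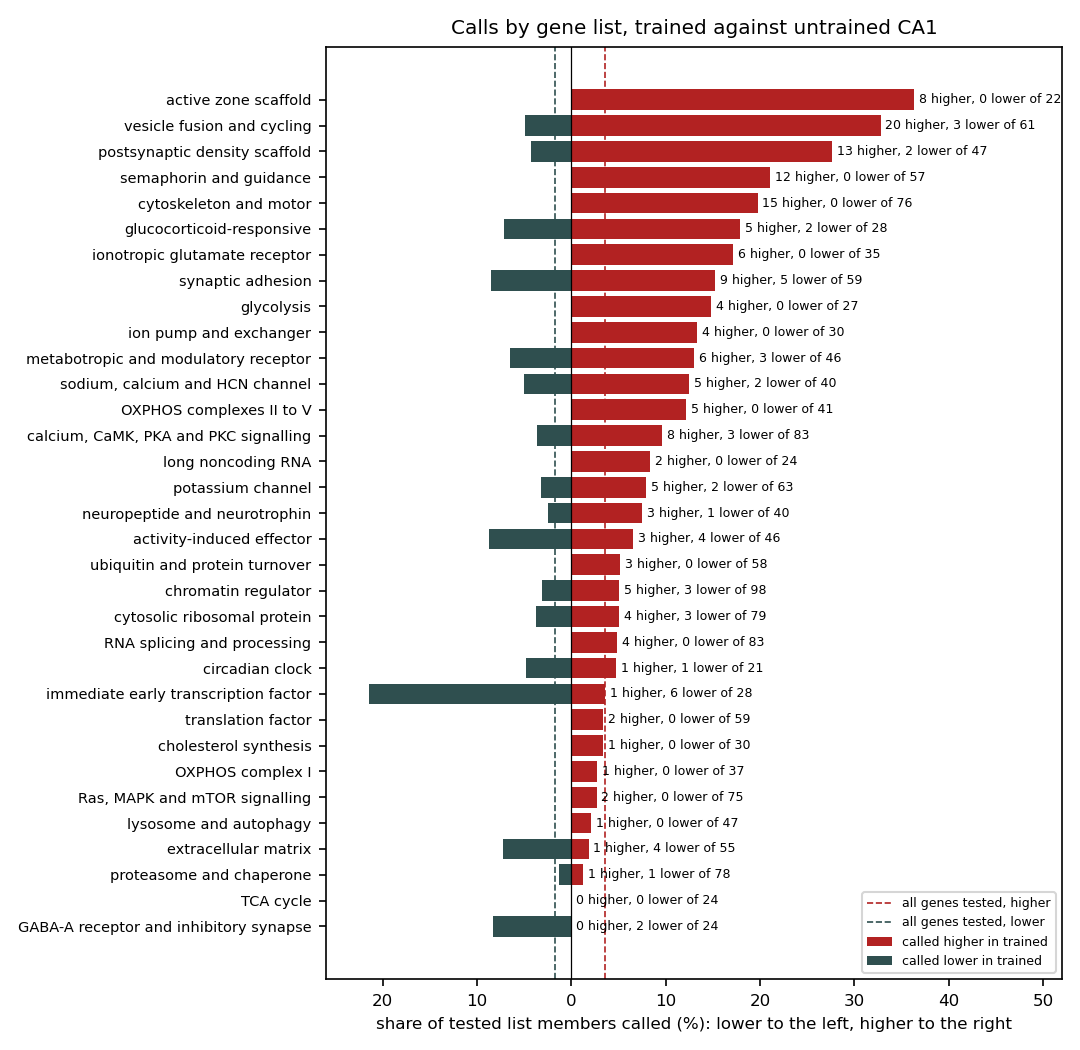
Share of the tested members of each pathway list called higher (to the right) or lower (to the left) in trained CA1, with the counts written beside each bar and dashed lines at the shares over all genes tested (3.53% and 1.7%). Active zone, vesicle and postsynaptic lists have the longest bars to the right and the immediate early transcription factors the longest to the left.

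Of 22 tested scaffold genes of the presynaptic active zone, 8 rose in trained CA1 (36.4%) and none was called lower, and the median log2 fold change over the list was 0.085, against 0.00032 over all genes. Among the fits without a library, the lowest and highest counts were 6 without trained library 2 or untrained library 1 or 2 and 8 without untrained library 3. Beside Bsn, the called genes were Pclo, Rims1, Rims2, Erc2, Ppfia3, Ppfia4 and Apba2. Piccolo (Pclo; chromosome 5, 14514918 to 14863459 of GRCm38), the giant scaffold that traps vesicles at the active zone, was at 8860.4, 9097 and 9477 in trained and 7518, 7561 and 7138 in untrained libraries. The groups were apart by more than their own spread (log2 fold change 0.30, SE 0.042, adjusted p = 0.000182). Rims1, whose protein tethers vesicles to calcium channels, was at 2239, 2223 and 2008 in trained and 1802, 1650.5 and 1658 in untrained libraries. Its 3 trained libraries were all higher (log2 fold change 0.34, SE 0.059, adjusted p = 0.00158). For 5 of the 8 called genes the untrained CA1 libraries lay below all 13 other libraries. The related Rims2 differed by 0.36 (SE 0.066, adjusted p = 0.00248), and Erc2, the CAST scaffold that binds Rims1 and piccolo, by 0.32 (SE 0.058, adjusted p = 0.00248). Ppfia4, a liprin-alpha, was at 1139, 1247 and 1142 in trained and 864, 840.0 and 871 in untrained libraries, which again did not overlap (log2 fold change 0.45, SE 0.063, adjusted p = 0.00021). Ppfia3, another liprin-alpha, was called (0.29, SE 0.071, adjusted p = 0.0206) with an adjusted p of between 0.0769 and 0.155 without trained 2, untrained 1 or untrained 2. Of the members not called, Unc13a, the Munc13 priming factor, differed by 0.054 (SE 0.050, adjusted p = 0.617) and Ppfia2 by 0.081 (SE 0.061, adjusted p = 0.518).

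The machinery of vesicle fusion and recycling held the most called genes of the presynaptic lists. Of 61 tested, 20 were higher (32.8%) and 3 lower (4.92%), with a median of 0.14, and the lowest and highest counts with 1 library left out were 10 without trained library 2 and 24 without untrained library 3, and for lower genes 0 without trained library 1 or untrained library 1 and 2 without untrained library 3. Complexins, which clamp the SNARE complex until calcium enters, were higher in both forms named here. Cplx2 was at 17071, 17395 and 17341 in trained and 14370, 14373 and 14006 in untrained libraries. The trained values were tightly grouped and all higher (log2 fold change 0.28, SE 0.035, adjusted p = 7.14e-05). Cplx1 was at 2495, 2429 and 2296 in trained and 1884, 1715 and 1992 in untrained libraries, with no overlap (log2 fold change 0.37, SE 0.060, adjusted p = 0.000789). Synapsin 2 (Syn2), which holds vesicles in the reserve pool, was at 5025, 5013 and 5159.9 in trained and 4125, 3986 and 3961 in untrained libraries. Trained libraries were again all above (log2 fold change 0.33, SE 0.044, adjusted p = 0.000112). Among genes of endocytosis, Dnm1, the neuronal dynamin that cuts vesicles from the membrane, was at 7171, 7661 and 7252 in trained and 5969, 5594 and 6261 in untrained libraries. Its groups were separate (log2 fold change 0.31, SE 0.047, adjusted p = 0.00047). Sh3gl2 (endophilin A1) differed by 0.33 (SE 0.055, adjusted p = 0.0011) and Pacsin1, a dynamin-binding membrane-bending protein, by 0.29 (SE 0.053, adjusted p = 0.00248). The other called members included Snap91, Vamp1, Syt1, Syt7, Syt13, Syp, Syngr1, Rph3a, Slc17a7, Ap2a1, Ap2a2 and Dnajc6, among them the vesicular glutamate transporter (Slc17a7), synaptophysin (Syp) and a calcium sensor (Syt1), and all 13 had log2 fold changes of 0.16 to 0.32. Of the 20, 4 had the untrained CA1 libraries below all others. Doc2b, a high-affinity calcium sensor, Syt16 and Sv2c were called lower (-0.26, -0.33 and -0.36). Their adjusted p was between 0.0559 and 0.129 without trained 1, trained 2, untrained 1 or untrained 3 for Doc2b, between 0.0713 and 0.147 without trained 1, trained 3, untrained 1, untrained 2 or untrained 3 for Syt16 and between 0.0744 and 0.255 without trained 1, trained 2, trained 3, untrained 1 or untrained 2 for Sv2c. Members that were not called included the SNARE-disassembling ATPase Nsf (0.12, SE 0.039, adjusted p = 0.0732) and the clathrin heavy chain Cltc (0.047, SE 0.044, adjusted p = 0.617).

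Postsynaptic scaffolds changed in both directions. Of 47 tested, 13 were higher (27.7%) and 2 lower, with a median of 0.061, and the lowest and highest counts with 1 library left out were 7 without trained library 2 or untrained library 1 and 18 without untrained library 3. With the sex-linked score in the fit of 16 libraries the median turned to -0.056. Camk2n1, an endogenous inhibitor of CaMKII, was at 5942, 5934 and 6143 in trained and 4487, 4613 and 4504 in untrained libraries. The trained libraries were all higher (log2 fold change 0.41, SE 0.042, adjusted p = 1.78e-05). Iqsec3, an Arf exchange factor of inhibitory synapses, was at 2199, 2340.1 and 2239.9 in trained and 1705, 1628 and 1768 in untrained libraries and Begain, a PSD-95 binding protein, at 417, 436 and 445 in trained and 306, 272 and 340.1 in untrained libraries. Neither gene overlapped between groups (log2 fold change 0.41, SE 0.054, adjusted p = 0.000112 for Iqsec3 and 0.50, SE 0.095, adjusted p = 0.00303 for Begain). Neurogranin (Nrgn), which holds calmodulin in spines, differed by 0.50 (SE 0.089, adjusted p = 0.0157) and had an adjusted p of 0.0507 without trained 2. The 2 lower genes were Homer family members. Homer1, whose long form links metabotropic glutamate receptors to scaffolds and whose short form is induced by activity, was at 918, 1060 and 940.2 in trained and 1453, 1396 and 1542 in untrained libraries. Every trained library was lower (log2 fold change -0.59, SE 0.067, adjusted p = 3.17e-05). Homer2 was at 1251, 1324 and 1394 in trained and 1725, 1792 and 2322 in untrained libraries, also lower in all 3 (log2 fold change -0.54, SE 0.10, adjusted p = 0.0186; adjusted p between 0.0687 and 0.076 without trained 1, trained 2 or trained 3). For both lower genes, and for 1 of the 13 higher ones, the untrained CA1 libraries stood apart from all 13 others: Homer1 was at 1396 to 1542 there and at 918 to 1157 in the rest. The number lower was 1 without trained library 1 or 2 or 3 and 2 without untrained library 1 or 2 or 3. Gene-level values do not separate the Homer1 isoforms.

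Among genes of ionotropic glutamate receptors and their partners, 6 of 35 were called, all higher (17.1%) (median 0.064). The lowest and highest counts with 1 library left out were 4 without trained library 2 and 8 without untrained library 3, and with the sex-linked score in the fit the median turned to -0.049. None encoded a main AMPA or NMDA receptor subunit. The neuronal pentraxin Nptx1, a secreted protein that clusters AMPA receptors, was at 8323, 8484 and 8272 in trained and 6294, 6621 and 5970.2 in untrained libraries. Its membrane-bound partner Nptxr was at 7860.1, 8386 and 7576 in trained and 5950.1, 5654 and 5158 in untrained libraries. Both were higher in all 3 trained libraries (log2 fold change 0.41, SE 0.044, adjusted p = 1.78e-05 for Nptx1 and 0.51, SE 0.053, adjusted p = 1.95e-05 for Nptxr). Kainate receptors were another group. Grik4, a high-affinity subunit also counted among the CA3 markers, was at 431, 403 and 438 in trained and 268, 292 and 304 in untrained libraries. Grik5 differed by 0.33 (SE 0.066, adjusted p = 0.00509). Neto1, an auxiliary subunit of kainate and NMDA receptors, was at 1855, 1666 and 1729.7 in trained and 1329, 1204 and 1090 in untrained libraries. The groups did not overlap for Grik4 (log2 fold change 0.56, SE 0.090, adjusted p = 0.00083) or Neto1 (0.54, SE 0.070, adjusted p = 0.000112), and Grik5 was at an adjusted p of 0.0505 without trained 2 and 0.0657 without untrained 1. The remaining called gene was Cacng2, an auxiliary subunit of AMPA receptors. With 1 library left out its log2 fold change was 0.35 to 0.44, and its adjusted p was 0.0567 without trained 1 and 0.0624 without trained 2. For 4 of the 6 called genes, Grik4 and Neto1 among them, the untrained CA1 libraries lay below all 13 others. The NMDA receptor subunit genes Grin2a and Grin2b were lower in all 3 trained libraries but not called (-0.12, SE 0.040, adjusted p = 0.0936 and -0.13, SE 0.041, adjusted p = 0.0825), and Gria1 differed by -0.064 (SE 0.039, adjusted p = 0.409).

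**Figure D3:**
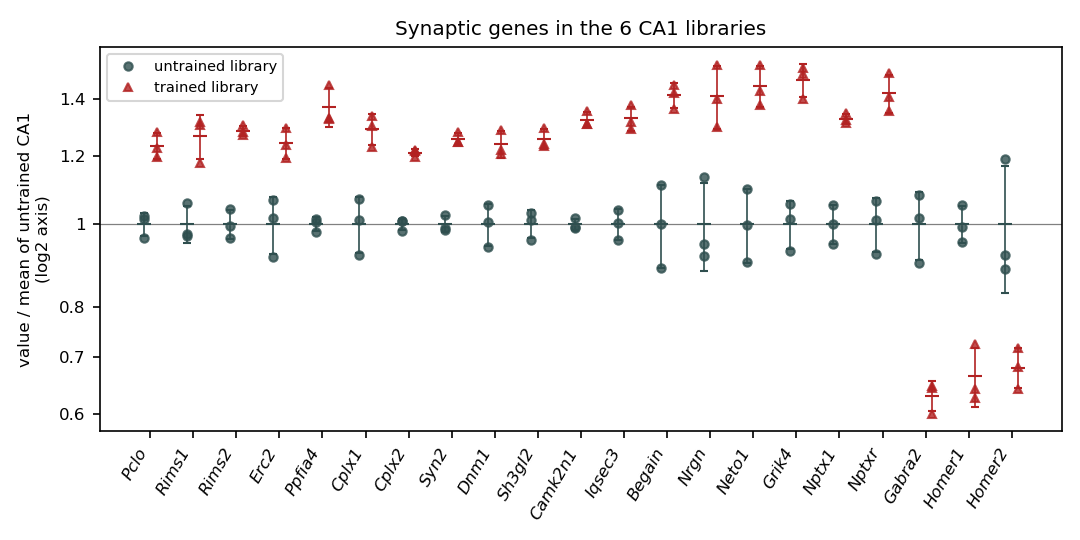
Values of 21 synaptic genes in the 6 CA1 libraries, each divided by the mean of the 3 untrained libraries and shown on a log2 axis, with the mean and SD of each group. Trained libraries (triangles) lie above untrained ones (circles) for the active zone, vesicle, scaffold and kainate receptor genes and below them for Gabra2, Homer1 and Homer2.

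Among GABA-A receptor and inhibitory synapse genes, 2 of 24 were called, both lower (8.33%), with a median of -0.060. Gabra2, an alpha subunit of GABA-A receptors, was at 907, 847 and 912 in trained and 1271, 1526 and 1436 in untrained libraries. All trained libraries were lower (log2 fold change -0.66, SE 0.070, adjusted p = 1.78e-05), and CA3 and DG libraries had 721 to 1584. Without trained library 2 or untrained library 1 the list had 1 call, and with GC and length trends removed 1 gene was called higher.

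Among 46 G protein-coupled receptors of glutamate, GABA and modulators, 6 were higher and 3 lower (median -0.021). With any library left out, the lowest and highest numbers higher were 5 without trained library 2 or 3 or untrained library 1 or 2 or 3 and 6 without trained library 1, and lower 2 without trained library 1 or untrained library 1 and 5 without untrained library 2. The higher ones included Gabbr2, the signalling subunit of the GABA-B receptor (3126, 3001 and 3090.2 in trained and 2486, 2447 and 2511 in untrained libraries), the neuropeptide Y receptor Npy2r (491, 535 and 535 in trained and 362, 356 and 375 in untrained libraries) and the metabotropic glutamate receptor Grm2 (927, 926 and 836 in trained and 687, 682 and 599 in untrained libraries). Their groups did not overlap, with log2 fold changes of 0.31 (SE 0.048, adjusted p = 0.000559), 0.51 (SE 0.081, adjusted p = 0.000739) and 0.45 (SE 0.075, adjusted p = 0.00111). The adenosine receptor Adora1 differed by 0.30 (SE 0.059, adjusted p = 0.00478) and had an adjusted p of 0.0552 without untrained 1. For 1 of the 6 higher and 2 of the 3 lower genes the untrained CA1 libraries lay apart from the other 13. The lower ones were Htr1b, a serotonin autoreceptor and heteroreceptor, Sstr4, a somatostatin receptor of CA1 dendrites, and Drd5, a dopamine receptor. Htr1b was at 10.1, 15.0 and 15.6 in trained and 40.9, 36.4 and 48.3 in untrained libraries, low values that were lower in all 3 trained libraries (log2 fold change -1.51, SE 0.30, adjusted p = 0.00453). Sstr4 was at 120.0, 149.7 and 97.0 in trained and 197, 181 and 265 in untrained libraries (log2 fold change -0.80, SE 0.17, adjusted p = 0.0093), and the value in CA3 and DG libraries was 74.1 to 146. Drd5 differed by -0.56 (SE 0.13, adjusted p = 0.0157), with an adjusted p of 0.0518 without trained 1 and 0.125 without untrained 1.

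Of 59 adhesion genes, 9 were higher and 5 lower (median 0.075). Over the 6 reduced fits, the lowest and highest numbers higher were 4 without trained library 2 or 3 and 13 without untrained library 3, and lower 1 without trained library 2 or untrained library 1 and 7 without untrained library 2. The untrained CA1 libraries were apart from the other 13 for 3 of the 9 and 2 of the 5. Adam11, a catalytically inactive ADAM protein, was at 1501, 1588 and 1478 in trained and 999, 908 and 1109 in untrained libraries. The groups were well apart (log2 fold change 0.60, SE 0.070, adjusted p = 4.16e-05). Cntnap1, the Caspr of paranodal junctions, was at 2496, 2608 and 2568 in trained and 1855, 1848 and 2010.1 in untrained libraries and Nrxn2, a presynaptic neurexin, at 2189, 2039.7 and 1806 in trained and 1461, 1259 and 1557 in untrained libraries. Both were higher in every trained library (log2 fold change 0.43, SE 0.053, adjusted p = 7.14e-05 for Cntnap1 and 0.50, SE 0.084, adjusted p = 0.00385 for Nrxn2). Adgrl2, a latrophilin that CA1 neurons place on distal dendrites, was at 265, 232 and 216 in trained and 470.2, 331 and 442 in untrained libraries. It was lower in every trained library (log2 fold change -0.79, SE 0.12, adjusted p = 0.00107), and CA3 and DG libraries had 76.8 to 202. The other 4 lower genes, Chl1, Flrt2, Cdh10 and Cntnap2, had log2 fold changes of -0.24, -0.30, -0.46 and -0.27. Their adjusted p was between 0.0564 and 0.161 without trained 2, trained 3 or untrained 1 for Chl1, between 0.0734 and 0.128 without trained 2, trained 3, untrained 1 or untrained 3 for Flrt2, between 0.0654 and 0.147 without trained 1, trained 2, untrained 1 or untrained 3 for Cdh10 and between 0.0997 and 0.191 without trained 1, trained 2, untrained 1 or untrained 3 for Cntnap2.

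Of 63 potassium channel genes 5 were higher and 2 lower (median 0.060), with 1 library left out 2 without untrained library 2 and 7 without untrained library 3 higher at the extremes, and 1 without trained library 1 or 2 or 3 and 2 without untrained library 1 or 2 or 3 lower. Of 40 sodium, calcium, HCN and related genes 5 were higher and 2 lower (median 0.023), with 2 without trained library 2 or untrained library 1 and 7 without untrained library 3 higher at the extremes, and 1 without trained library 1 or 2 and 4 without untrained library 2 lower. With the sex-linked score in the fit these medians turned to -0.082 and -0.013. In each list the untrained CA1 libraries lay apart from the other 13 for both lower genes and 1 of the 5 higher ones. Kcnmb4, the neuronal beta subunit of BK channels, was at 226, 231 and 187 in trained and 127, 131 and 141 in untrained libraries. The trained libraries were all higher (log2 fold change 0.68, SE 0.12, adjusted p = 0.00262). Kcnh7, an ERG channel that opposes repetitive firing, was at 230.3, 285 and 315 in trained and 415, 452 and 595 in untrained libraries, and was lower in all 3 (log2 fold change -0.81, SE 0.14, adjusted p = 0.00751). Cacna1c, the L-type calcium channel that couples depolarization to transcription, was at 2695, 2674 and 2691 in trained and 2103, 2186 and 1993 in untrained libraries. Its trained values lay within a narrow band above all untrained ones (log2 fold change 0.36, SE 0.051, adjusted p = 0.000256). The T-type Cacna1h differed by 0.30 (SE 0.058, adjusted p = 0.00309) and the P/Q-type Cacna1a of nerve terminals by 0.23 (SE 0.053, adjusted p = 0.0126), the latter with an adjusted p of 0.0781 without trained 2 and 0.0927 without untrained 1. The sign of Cacna1h turned with the sex-linked score in the fit (-0.18). Trpc4, a receptor-operated cation channel, differed by -0.41 (SE 0.079, adjusted p = 0.00385). The sodium channel Scn8a was not called (0.042, SE 0.044, adjusted p = 0.664).

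Of 83 calcium, CaMK, PKA and PKC signalling genes, 8 were higher and 3 lower (median 0.040). In fits of 5 libraries, the lowest and highest numbers higher were 5 without trained library 2 or untrained library 1 and 14 without untrained library 3, and lower 1 without trained library 2 or untrained library 1 and 3 without trained library 3. Camk2a, the alpha subunit of CaMKII, was at 46853, 49885 and 49113 in trained and 41908, 41543 and 45241 in untrained libraries. The difference was small and without overlap (log2 fold change 0.18, SE 0.036, adjusted p = 0.00491), and its adjusted p was 0.0576 without trained 2 and 0.0701 without untrained 1. The 14-3-3 gene Ywhah, whose proteins bind phosphorylated partners, was at 6275, 6293 and 6326 in trained and 5088, 4979 and 4966 in untrained libraries. Crtc1, the CREB coactivator that moves from synapse to nucleus with activity, was at 3039, 3128 and 2990.3 in trained and 2440.1, 2394 and 2430 in untrained libraries, and the kinase gene Camk1d at 2847, 2703 and 2706 in trained and 1959, 2228 and 2252 in untrained libraries. All 3 were higher in every trained library (log2 fold change 0.33, SE 0.041, adjusted p = 7.14e-05 for Ywhah, 0.33, SE 0.048, adjusted p = 0.000268 for Crtc1 and 0.36, SE 0.058, adjusted p = 0.000754 for Camk1d). The calcineurin subunit Ppp3ca, the adenylyl cyclase Adcy8 and the IP3 receptor Itpr1 were lower (-0.17, SE 0.039, adjusted p = 0.0144, -0.46, SE 0.11, adjusted p = 0.0217 and -0.31, SE 0.068, adjusted p = 0.0223). Their adjusted p was between 0.0595 and 0.0888 without trained 1, trained 2, untrained 1 or untrained 2 for Ppp3ca, between 0.0559 and 0.0962 without trained 2, untrained 2 or untrained 3 for Adcy8 and 0.0986 without untrained 1 for Itpr1. Of 75 genes of Ras, MAPK and mTOR signalling, 2 were called, both higher: Rap1gap2, which inactivates Rap (0.35, SE 0.062, adjusted p = 0.00197) and the IGF1 receptor Igf1r (0.23, SE 0.059, adjusted p = 0.0232; between 0.0826 and 0.154 without trained 1, trained 2 or untrained 1). The lowest and highest numbers higher were 1 without trained library 1 or 2 or untrained library 1 and 10 without untrained library 3, and 1 gene was lower with the replicate block. Pumps that restore ion gradients gave 4 calls of 30, all higher, led by 2 subunits of the vacuolar ATPase, the proton pump whose gradient powers the filling of vesicles with transmitter. They were Atp6v0a1 (3774, 3668 and 3997 in trained and 2980.4, 3057 and 3131 in untrained libraries) and Atp6v1g2 (2157, 2219 and 2358 in trained and 1778, 1796 and 1828 in untrained libraries). The number higher was 2 without trained library 1 or 2 or untrained library 1 and 7 without untrained library 3, and 1 was lower without trained library 3, untrained library 2 or untrained library 3. Blocking on the replicate gave 3 higher and 2 lower. Both genes were above in all 3 trained libraries (log2 fold change 0.32, SE 0.049, adjusted p = 0.000507 for Atp6v0a1 and 0.32, SE 0.053, adjusted p = 0.00122 for Atp6v1g2).

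Of 28 immediate early transcription factors, 6 fell in trained CA1 (21.4%) and 1 rose. The median was -0.15, and 13 of the 28 had all trained libraries below all untrained ones, against 11.1% of all genes tested. When a library was left out, the lowest and highest numbers lower were 4 without trained library 3 or untrained library 1 or 2 and 6 without trained library 2 or untrained library 3. Egr1, a zinc finger factor long used as a marker of neuronal activation, was at 678, 759 and 687 in trained and 1134, 1344 and 1716 in untrained libraries. All 3 trained libraries were lower (log2 fold change -0.96, SE 0.15, adjusted p = 0.0157), though its adjusted p was between 0.0752 and 0.106 without trained 1, trained 3 or untrained 2. The related Egr2 was at 20.3, 31.6 and 40.3 in trained and 64.6, 105 and 125 in untrained libraries and Egr4 at 37.3, 46.0 and 32.7 in trained and 79.9, 61.3 and 95.0 in untrained libraries. Their groups did not overlap (log2 fold change -1.61, SE 0.27, adjusted p = 0.00169 for Egr2 and -0.98, SE 0.22, adjusted p = 0.0108 for Egr4), and Egr4 had an adjusted p of 0.069 without untrained 1 and 0.0589 without untrained 3. Fos, a partner in the AP-1 dimer, was at 87.4, 88.0 and 77.9 in trained and 131, 133 and 162 in untrained libraries, lower throughout (log2 fold change -0.74, SE 0.15, adjusted p = 0.00521). Bcl6, a transcriptional repressor, was at 552, 603 and 591 in trained and 804, 915 and 869 in untrained libraries. It was the member with the smallest adjusted p (log2 fold change -0.57, SE 0.073, adjusted p = 0.000109). For 3 of the 6 lower genes the untrained CA1 libraries lay above all 13 others. Nr4a2, an orphan nuclear receptor, differed by -0.50 (SE 0.13, adjusted p = 0.0376) and had an adjusted p of between 0.0659 and 0.14 without trained 3, untrained 1, untrained 2 or untrained 3. The 1 higher gene was Jund, an AP-1 partner present at rest, at 269, 257 and 218 in trained and 164, 178 and 179.6 in untrained libraries (log2 fold change 0.50, SE 0.11, adjusted p = 0.0126; between 0.0683 and 0.0772 without trained 1, trained 2 or untrained 1). Egr3 was lower in all trained libraries and was not called (-0.15, SE 0.062, adjusted p = 0.185).

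Neuronal activity is known to reach transcription in part through the cAMP response element, bound by CREB, and its half-site TGACG. RefSeq promoters (build GRCm38.p6, 250 bases before to 50 after the start) were matched for 10583 of the 13588 tested genes. On either strand the half-site was in 35% of them, in 31.7% of those called higher and in 34.9% of those called lower, and the full palindrome TGACGTCA, which contains it, was in 3.53%, 3.85% and 2.91%. Of the immediate early genes called lower, the promoters of 5 were in the table, and all 5 held a half-site in at least 1 listed promoter, against 11 of 18 in the list that were not called. Egr2 and Bcl6 are listed with more than 1 promoter, not all of which hold it, and the difference was not tested. The full palindrome was in 0 of the 5 and 1 of the 18, and the E-box CACGTG in 2 of the 5 and 2 of the 18. The 3 printed here belong to genes called lower, with TGACG (or CGTCA, the same letters on the other strand) and TATAAA (or TTTATA) in capitals.
Fos, chr12:85473640-85473939, plus strand: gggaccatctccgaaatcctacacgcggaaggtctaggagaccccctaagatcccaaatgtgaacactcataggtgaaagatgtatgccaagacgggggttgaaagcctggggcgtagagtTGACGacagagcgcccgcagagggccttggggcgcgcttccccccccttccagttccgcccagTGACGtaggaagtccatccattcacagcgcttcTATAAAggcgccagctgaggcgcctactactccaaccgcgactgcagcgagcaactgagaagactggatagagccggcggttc
Egr4, chr6:85513540-85513839, minus strand: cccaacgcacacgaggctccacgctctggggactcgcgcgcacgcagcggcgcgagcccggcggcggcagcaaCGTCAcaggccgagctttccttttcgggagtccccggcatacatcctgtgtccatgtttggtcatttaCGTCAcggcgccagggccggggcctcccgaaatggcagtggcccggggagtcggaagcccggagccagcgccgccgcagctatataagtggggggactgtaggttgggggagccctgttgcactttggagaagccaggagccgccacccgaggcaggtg
Nr4a2, chr2:57123954-57124253, minus strand: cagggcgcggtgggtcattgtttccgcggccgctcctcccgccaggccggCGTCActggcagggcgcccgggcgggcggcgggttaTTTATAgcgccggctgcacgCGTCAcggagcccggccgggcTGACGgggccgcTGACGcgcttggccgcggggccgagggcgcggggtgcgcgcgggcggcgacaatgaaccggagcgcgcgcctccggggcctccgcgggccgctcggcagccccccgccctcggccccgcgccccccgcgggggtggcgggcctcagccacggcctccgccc
In Fos the half-sites begin 129 and 66 bases before the start and the TATA box 33 bases before it. Egr4 holds 2 half-sites and Nr4a2 holds 4. A match describes letters only and does not show that a factor binds there. The GC box GGGCGG was in 76.3% of promoters of genes called higher, 63.4% of those called lower and 69.1% of all tested, and TATAAA in 6.8%, 13.4% and 8.45%. The E-box was in 10.7%, 8.72% and 11.6%.

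Effector genes induced by activity were divided. Of 46 tested, 3 were higher and 4 lower (8.70%), with a median of -0.16. Of the 46, 14 had all trained libraries below all untrained ones, against 11.1% of all genes tested. With 1 library left out, the lowest and highest numbers higher were 1 without untrained library 1 and 4 without trained library 3, and lower 2 without trained library 1 or untrained library 3 and 5 without trained library 3. The untrained CA1 libraries lay apart from the other 13 for 4 of the 4 lower and 2 of the 3 higher genes. Beside Homer1, described above, Plk2, a kinase that weakens synapses after sustained activity, was at 1264, 1312 and 1471 in trained and 1674, 1771 and 2048 in untrained libraries. It was lower in all 3 trained libraries (log2 fold change -0.44, SE 0.075, adjusted p = 0.00223). Arc, the effector whose promoter drives the transgene of these mice, was at 1509.6, 1894 and 1758 in trained and 2081, 2772 and 4067 in untrained libraries. The trained libraries were all lower, but the untrained ones were widely spread and Arc was not called (log2 fold change -0.74, SE 0.29, adjusted p = 0.291). Ptgs2, the inducible cyclooxygenase, was at 370.2, 335 and 404 in trained and 242, 275 and 215 in untrained libraries and moved the other way (log2 fold change 0.60, SE 0.11, adjusted p = 0.00206). Nrn1 (neuritin) differed by 0.30 (SE 0.059, adjusted p = 0.00478), with an adjusted p of 0.0574 without untrained 1. Lingo1 was also called higher and Trib1 and Sorcs3 lower (0.51, -0.79 and -0.36), each losing the call in at least 1 fit with a library left out (adjusted p between 0.0758 and 0.122 without trained 1, trained 2, untrained 1 or untrained 2 for Lingo1, between 0.0572 and 0.0671 without trained 1, untrained 2 or untrained 3 for Trib1 and between 0.0747 and 0.147 without trained 1, trained 2, untrained 1 or untrained 3 for Sorcs3). With the sex-linked score in the fit Sorcs3 differed by 0.0081.

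Genes that respond to glucocorticoids, the adrenal hormones released by stress, gave 5 higher and 2 lower of 28 (median 0.17). Among the fits without a library, the lowest and highest numbers higher were 2 without trained library 2 or untrained library 2 and 5 without trained library 3, and lower 1 without trained library 1 or 2 or untrained library 2 and 2 without trained library 3 or untrained library 1 or 3. The metallothioneins Mt1 and Mt2, which bind zinc and copper, had the largest of these differences. Mt1 was at 1026, 866 and 767 in trained and 472, 510.1 and 450.1 in untrained libraries and Mt2 at 538, 552 and 437 in trained and 295, 298 and 303 in untrained libraries. Neither gene overlapped between groups (log2 fold change 0.88, SE 0.093, adjusted p = 2.70e-05 for Mt1 and 0.76, SE 0.095, adjusted p = 7.31e-05 for Mt2), whereas the neuronal Mt3 differed by -0.051 (SE 0.060, adjusted p = 0.705). The glucocorticoid-induced Tsc22d3 (GILZ) differed by 0.37 (SE 0.099, adjusted p = 0.0345) and the glucose transporter Slc2a1 by 0.41 (SE 0.10, adjusted p = 0.0246). Their adjusted p was between 0.0667 and 0.181 without trained 2, trained 3, untrained 1 or untrained 2 for Tsc22d3 and between 0.0546 and 0.126 without trained 1, trained 2, untrained 2 or untrained 3 for Slc2a1. The mineralocorticoid receptor Nr3c2 was lower (-0.24, SE 0.056, adjusted p = 0.017; between 0.0581 and 0.0849 without trained 1, trained 2 or untrained 2). The textbook target Klf9 was lower in all trained libraries and not called (-0.15, SE 0.056, adjusted p = 0.151).

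The 21 clock genes gave 1 call each way: Bhlhe40, a repressor of the clock that is also induced by activity, was at 639, 715 and 591 in trained and 964, 951 and 1048 in untrained libraries. All 3 trained libraries were lower (log2 fold change -0.61, SE 0.077, adjusted p = 7.31e-05). Per3 was higher (0.27, SE 0.076, adjusted p = 0.0407) with an adjusted p of between 0.0507 and 0.168 without trained 1, trained 2, untrained 1, untrained 2 or untrained 3. Of 40 neuropeptide and neurotrophin genes, 3 were higher and 1 lower, with 1 without untrained library 1 and 4 without untrained library 3 higher at the extremes when 1 library was left out. Chromogranin B (Chgb), which forms the matrix of dense-core vesicles, was at 4768, 4689 and 4788 in trained and 3099, 3637 and 2923 in untrained libraries. It did not overlap (log2 fold change 0.57, SE 0.065, adjusted p = 0.000112), and it is counted among the CA2 and CA3 markers as well. The prohormone convertase Pcsk2 differed by 0.25 (SE 0.050, adjusted p = 0.00447) (0.0554 without untrained 1) and Igfbp4, which binds insulin-like growth factors, was lower by -0.72 (SE 0.13, adjusted p = 0.00303).

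**Figure D4:**
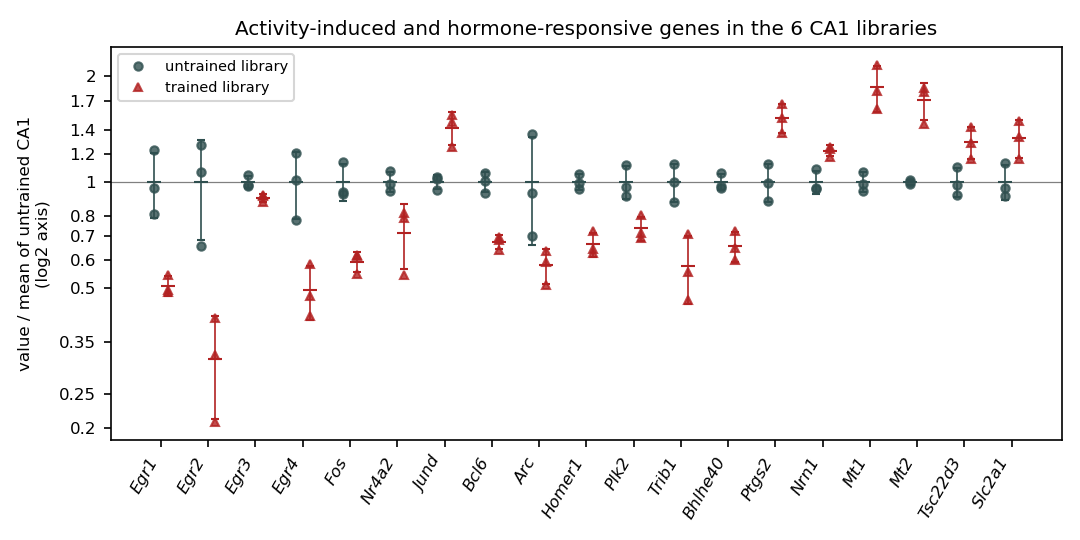
Values of 19 activity-induced, clock and hormone-responsive genes in the 6 CA1 libraries, each divided by the mean of the untrained libraries and shown on a log2 axis, with the mean and SD of each group. Egr1, Egr2, Egr4, Fos, Bcl6, Homer1, Plk2 and Bhlhe40 lie lower in trained mice, and Jund, Ptgs2, Mt1 and Mt2 lie higher.

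Of 76 cytoskeleton and motor genes, 15 were called, all higher (19.7%) (median 0.062). With any library left out, the lowest and highest numbers higher were 5 without trained library 2 or untrained library 1 and 20 without untrained library 3, and in the latter fit 2 members were called lower. With the replicate block 1 was lower, as was 1 after removal of the GC and length trends. Dynll2, a dynein light chain found in spines and motors, was at 3199.7, 2728 and 2683 in trained and 2094, 2129 and 2242 in untrained libraries. Kinesin light chain 1 (Klc1), which links cargo to kinesin, was at 2796, 2776 and 2706 in trained and 2166, 2041 and 2358 in untrained libraries. Both were above in all trained libraries (log2 fold change 0.41, SE 0.063, adjusted p = 0.000591 for Dynll2 and 0.34, SE 0.056, adjusted p = 0.0011 for Klc1). Dynactin subunit 1 (Dctn1) differed by 0.40 (SE 0.071, adjusted p = 0.0041) and Stmn2, a tubulin-binding growth protein, by 0.36 (SE 0.065, adjusted p = 0.00219). The microtubule proteins Map1a and Map1b were called (0.17 and 0.16; adjusted p between 0.0566 and 0.0927 without trained 2, trained 3, untrained 1 or untrained 2 for Map1a and between 0.0522 and 0.0749 without trained 2, trained 3 or untrained 1 for Map1b). The other called members, 3 neurofilament subunits and an axonal kinesin among them, were Tubb4b, Kif1a, Dync1i1, Dctn2, Nefl, Nefm, Nefh and Sptbn4 (0.16 to 0.36). For 5 of the 15 the untrained CA1 libraries lay below all others. Map2 of dendrites (0.038, SE 0.040, adjusted p = 0.668) and Actb (-0.053, SE 0.038, adjusted p = 0.494) were not.

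Axon guidance genes gave 12 calls of 57, all higher (21.1%) (median 0.079). Over the 6 reduced fits, the lowest and highest numbers higher were 6 without untrained library 1 and 10 without trained library 1 or untrained library 3, and the sex-linked score turned the median to -0.0024. Members were also called lower in some fits, 2 without trained library 3 and 2 after removal of the GC and length trends. They included both sides of the Slit and Robo pathway, in which Slit ligands repel growing axons that carry Robo receptors. The receptor Robo1 (chromosome 16, 72308306 to 73046095) was at 1018, 1041 and 1024 in trained and 705, 682 and 719 in untrained libraries. The groups lay well apart (log2 fold change 0.55, SE 0.064, adjusted p = 4.06e-05). The ligand Slit2 was at 504, 445 and 519 in trained and 379, 310.0 and 304 in untrained libraries, higher in each trained library (log2 fold change 0.57, SE 0.098, adjusted p = 0.00158). The netrin receptor Unc5c was at 997, 923 and 966 in trained and 745, 748 and 663 in untrained libraries, and Ntng2, a netrin-G that labels synaptic inputs, at 402, 434 and 327 in trained and 236, 247 and 261 in untrained libraries. Neither overlapped (log2 fold change 0.42, SE 0.070, adjusted p = 0.00113 for Unc5c and 0.63, SE 0.11, adjusted p = 0.00122 for Ntng2). Semaphorin receptors of the neuropilin type followed, with Nrp2 at 0.38 (SE 0.067, adjusted p = 0.00197), and so did the planar polarity cadherin Celsr2 (0.30, SE 0.058, adjusted p = 0.0042). The other 6 called members were Sema6b, Nrp1, Slit1, Epha3, Unc5a and Celsr3 (0.20 to 0.45). For 6 of the 12 the untrained CA1 libraries lay below all others. Of 55 extracellular matrix genes, 1 was higher and 4 lower (median -0.0098), and with 1 library left out the extremes were 0 without untrained library 1 and 3 without untrained library 3 for higher and 1 without trained library 2 and 4 without trained library 3 for lower. The lower ones were Dcn (decorin), the fibrillar collagen Col11a1 (-0.95, SE 0.21, adjusted p = 0.0102; between 0.0502 and 0.0708 without trained 2, untrained 2 or untrained 3), Reln and the glycoprotein tenascin C, Tnc (-0.62, SE 0.17, adjusted p = 0.0333; between 0.0521 and 0.165 without trained 1, trained 2, trained 3, untrained 1 or untrained 2). Dcn was at 45.3, 31.1 and 30.7 in trained and 100.2, 85.9 and 66.8 in untrained libraries, lower in all 3 trained libraries (log2 fold change -1.20, SE 0.22, adjusted p = 0.00274), and it is also a marker of CA1 and of leptomeninges. Reelin (Reln), made by interneurons, differed by -0.25 (SE 0.062, adjusted p = 0.0204), with an adjusted p of between 0.0677 and 0.106 without trained 1, trained 2 or untrained 1.

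Among genes of energy metabolism, oxidative phosphorylation gave 1 higher of 37 for complex I (2.7%) and 5 higher of 41 for complexes II to V (12.2%), none of them lower, and medians of 0.14 and 0.056. Without a library the numbers higher at the extremes were 0 without trained library 1 or 2 or untrained library 2 and 3 without trained library 3 for complex I, and 2 without untrained library 1 and 5 without untrained library 2 or 3 for the others. After removal of the trends with GC content and length, complexes II to V had 4 higher and 3 lower. Uqcrq, a small subunit of complex III, was at 454, 380.3 and 338 in trained and 161, 143 and 222 in untrained libraries, with no overlap (log2 fold change 1.16, SE 0.16, adjusted p = 0.000928). Uqcr11 of the same complex was at 371, 329.5 and 357 in trained and 188, 219.8 and 263 in untrained libraries (log2 fold change 0.66, SE 0.11, adjusted p = 0.00158). Cox6a1 differed by 0.36 (SE 0.078, adjusted p = 0.00913), but by -0.049 after that removal, and its adjusted p was 0.0873 without untrained 1. Cox17, the copper chaperone of cytochrome c oxidase and outside the list, was at 154, 157 and 167 in trained and 51.7, 93.2 and 79.3 in untrained libraries, also all higher (log2 fold change 1.11, SE 0.18, adjusted p = 0.00113). Among members of these lists and the TCA cycle that were not called, Atp5b differed by 0.00031 (SE 0.042, adjusted p = 0.998), Sdha by 0.13 (SE 0.050, adjusted p = 0.148) and Ndufs1 by -0.069 (SE 0.066, adjusted p = 0.629). Glycolysis gave 4 calls of 27, all higher (14.8%), or 2 without trained library 1 or 2 or untrained library 2 and 4 without untrained library 3, with 1 lower without untrained library 2. Eno1 (enolase) was at 4298, 4469.8 and 4394 in trained and 3498, 3382 and 3901 in untrained libraries and the liver-type phosphofructokinase Pfkl at 1665, 1851 and 1666 in trained and 1259, 1241 and 1486 in untrained libraries. Both were higher in all trained libraries (log2 fold change 0.29, SE 0.053, adjusted p = 0.00236 for Eno1 and 0.38, SE 0.070, adjusted p = 0.00297 for Pfkl). Aldoa (aldolase) and Slc2a1 were the others called, with an adjusted p of between 0.0607 and 0.1 without trained 1, trained 2, trained 3, untrained 1 or untrained 2 for Aldoa. The neuronal enolase Eno2 differed by -0.065 (SE 0.060, adjusted p = 0.613). None of the 24 TCA cycle genes was called by limma, 3 of them having an unadjusted p under 0.05, and of 30 cholesterol synthesis genes 1 was higher. With 1 library left out these lists had at most 1 and 2 higher and at least 0.

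Of 79 cytosolic ribosomal protein genes, 4 were higher and 3 lower (median -0.016). The numbers higher were 2 without trained library 2 or untrained library 1 and 8 without untrained library 3, and the numbers lower 1 without trained library 2 or untrained library 1 and 5 without untrained library 3. After removal of the GC and length trends 3 were higher and 14 lower, with a median of -0.072, and with the sex-linked score the median was 0.031. Rpl13a was at 1892, 1802 and 1845 in trained and 1533, 1447 and 1549 in untrained libraries and Rpl29 at 513, 559 and 525 in trained and 695, 672 and 758 in untrained libraries, the first higher and the second lower in all trained libraries (log2 fold change 0.29, SE 0.055, adjusted p = 0.00309 for Rpl13a and -0.41, SE 0.076, adjusted p = 0.00262 for Rpl29). These genes have many processed pseudogenes with which reads can be shared, and their values are uncertain. Of 59 translation factors 2 were higher, of 78 proteasome and chaperone genes 1 was higher and 1 lower, of 47 lysosome and autophagy genes 1 was higher, and of 58 ubiquitin genes 3 were higher (1 without trained library 2 or untrained library 1 and 6 without untrained library 3). With 1 library left out, translation factors had 1 to 4 higher, proteasome and chaperone genes 0 to 1 higher and 0 to 2 lower, and lysosome genes 0 to 2 higher, with the highest numbers without trained library 3 or untrained library 3. Uchl1, the abundant neuronal deubiquitinase, was at 1579, 1624 and 1510.3 in trained and 1025, 929.7 and 1103 in untrained libraries, higher in all trained libraries (log2 fold change 0.63, SE 0.067, adjusted p = 1.78e-05).

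Among 83 splicing and RNA-processing genes 4 were called higher (4.82%, against 3.53% of all genes) and none lower. The number higher was 2 without trained library 1 or 2 or untrained library 1 and 6 without untrained library 3, and the number lower 3 without untrained library 3. Celf4, which binds synaptic transcripts, was at 3591, 3356 and 3124 in trained and 2353, 2208 and 2405 in untrained libraries. The groups did not overlap (log2 fold change 0.53, SE 0.056, adjusted p = 1.78e-05). Elavl2, a HuB protein also counted as a CA3 marker, differed by 0.57 (SE 0.086, adjusted p = 0.000453), and Rbfox1 and Rbfox3 (the antigen NeuN) by 0.18 (SE 0.045, adjusted p = 0.0255) and 0.27 (SE 0.066, adjusted p = 0.0206). The adjusted p was between 0.0581 and 0.186 without trained 1, trained 2, trained 3 or untrained 1 for Rbfox1 and between 0.0649 and 0.165 without trained 1, trained 2, untrained 1 or untrained 2 for Rbfox3. Of 98 chromatin regulators 5 were higher (4 without trained library 1 or 2 or untrained library 1 or 2 and 9 without untrained library 3) and 3 lower (0 without trained library 1 or 2 or untrained library 1 or 2 and 4 without untrained library 3). Kmt2d, a histone H3 lysine 4 methyltransferase, was at 4472, 4883 and 4795 in trained and 3719.8, 3673 and 3938 in untrained libraries, higher in each trained library (log2 fold change 0.32, SE 0.049, adjusted p = 0.000482), while its relative Kmt2a was lower (-0.18, SE 0.049, adjusted p = 0.0315; between 0.0703 and 0.148 without trained 1, trained 2, untrained 1 or untrained 2). Among long noncoding RNAs, 2 of 24 were higher (0 without untrained library 1 and 3 without trained library 1). Neat1, the scaffold of paraspeckles, differed by 0.31 (SE 0.072, adjusted p = 0.0142), with an adjusted p of 0.106 without trained 2 and 0.122 without untrained 1, and Malat1 was not called (0.081, SE 0.041, adjusted p = 0.332). Some small RNAs and replication-type histone genes were among the named increases. The spliceosomal Rnu11 was at 207, 138 and 144 in trained and 59.0, 64.9 and 30.9 in untrained libraries and the snoRNA Snora78 at 192, 127 and 96.1 in trained and 38.7, 51.3 and 24.4 in untrained libraries. Hist4h4 was at 118, 92.5 and 88.4 in trained and 31.4, 33.3 and 40.2 in untrained libraries and Hist1h4h at 210.5, 168 and 146 in trained and 60.3, 71.9 and 88.4 in untrained libraries. For all 4 the trained libraries were higher, by 1.66 (SE 0.26, adjusted p = 0.0028), 1.81 (SE 0.29, adjusted p = 0.00297), 1.46 (SE 0.20, adjusted p = 0.000182) and 1.23 (SE 0.17, adjusted p = 0.00021). Snord110, Snord67 and Hist1h4m were also called higher, with an adjusted p of between 0.0904 and 0.16 without trained 3, untrained 1, untrained 2 or untrained 3 for Snord110, between 0.052 and 0.16 without trained 1, trained 2 or untrained 1 for Snord67 and between 0.085 and 0.177 without trained 2, untrained 1 or untrained 2 for Hist1h4m. These transcripts are short and mostly lack a poly(A) tail, histone H4 genes are near-identical copies of each other, and snoRNA reads can come from host introns, so these values are uncertain.

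Other genes were named for the size of the difference or the smallness of p. Pitpnm2, a phosphatidylinositol transfer protein (chromosome 5, 124118690 to 124249760), was at 5179, 5397 and 5057 in trained and 3604, 3517 and 3746 in untrained libraries. The trained libraries were all higher (log2 fold change 0.52, SE 0.046, adjusted p = 2.07e-06). Rab15, a GTPase of recycling endosomes (chromosome 12, 76797960 to 76822908), was at 1221, 1273 and 1231 in trained and 765, 756 and 853 in untrained libraries, all higher (log2 fold change 0.65, SE 0.066, adjusted p = 1.32e-05). Tshz2, a homeobox zinc finger gene and the 1 higher call among the markers of subiculum, cortex and thalamus, was at 390.3, 295 and 306 in trained and 155, 105 and 90.0 in untrained libraries (log2 fold change 1.51, SE 0.18, adjusted p = 0.000534), and CA3 and DG libraries had 49.6 to 306. With the sex-linked score in the fit of 16 libraries its sign turned (-0.51). Among lower genes, Lztfl1, a regulator of ciliary traffic (chromosome 9, 123694416 to 123717697), was at 274, 278 and 260.0 in trained and 446, 471 and 481 in untrained libraries. The untrained libraries were all higher (log2 fold change -0.78, SE 0.086, adjusted p = 2.51e-05). Slc7a11, the cystine and glutamate exchanger of astrocytes (chromosome 3, 49892526 to 50443614), was at 444, 424 and 456 in trained and 677, 691 and 655 in untrained libraries, with the groups well apart (log2 fold change -0.61, SE 0.075, adjusted p = 6.16e-05). Zfp462, a zinc finger gene, was at 587, 595 and 605 in trained and 939, 829 and 1013 in untrained libraries (log2 fold change -0.63, SE 0.076, adjusted p = 5.69e-05). The cadherin Cdh6 (62.3, 64.4 and 64.9 in trained and 102, 118 and 179 in untrained libraries), the copine Cpne8 (62.9, 82.7 and 62.2 in trained and 118, 139 and 201 in untrained libraries) and the homeobox gene Meis2 (109.9, 93.7 and 69.8 in trained and 183, 138 and 208 in untrained libraries) were lower by about the same amount. Their log2 fold changes were -0.99 (SE 0.19, adjusted p = 0.00317), -1.10 (SE 0.19, adjusted p = 0.00168) and -0.94 (SE 0.18, adjusted p = 0.00405).

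At the low end, 7 genes were listed at 0 in all trained libraries and reached at least 10 in all untrained ones, and 0 genes had the opposite pattern. The 7 included Muc5b, a secreted mucin (18.0, 26.1 and 12.4 in the untrained libraries), and Xirp2, an actin-binding protein of muscle (19.5, 20.5 and 12.6). The trained libraries listed more genes at 0 in general, and no fold is given for these genes. Dux, a multicopy homeobox gene, was at 3.32, 1.54 and 0 in trained and 59.7, 61.5 and 36.7 in untrained libraries and is uncertain for its copies.

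Of 24 astrocyte markers 2 were lower, the water channel Aqp4 (1259.9, 1189.6 and 1314 in trained and 1669, 1592 and 1533 in untrained libraries; log2 fold change -0.35, SE 0.060, adjusted p = 0.00149) and Fabp7 (-0.53, SE 0.15, adjusted p = 0.0414; between 0.0929 and 0.18 without trained 1, trained 2, untrained 1 or untrained 2). The number lower was 1 without trained library 1 or 2 or untrained library 1 or 2 and 2 without trained library 3 or untrained library 3. After removal of the GC and length trends 4 were called higher and 3 lower. The summed level was 108076 to 109559 in trained and 101563 to 104450 in untrained CA1. By limma 0 of 22 microglia, 0 of 11 oligodendrocyte precursor and 0 of 12 choroid plexus and ependymal markers were called, with 1, 3 and 1 at an unadjusted p under 0.05. Without trained library 1, 5 of the 12 choroid plexus and ependymal markers were called lower. Oligodendrocyte markers gave 1 lower of 29 (1 without trained library 2 or 3 or untrained library 1 and 4 without untrained library 2) and summed to 21507 to 24940 in trained and 23405 to 35266 in untrained libraries, where untrained library 3 had the highest sum. Endothelial markers gave 2 higher of 24 (1 without trained library 1 or 2 or untrained library 2 or 3 and 3 without trained library 3), with Vwf, the clotting factor of endothelium, at 217, 211 and 183 in trained and 115, 120.0 and 148 in untrained libraries (log2 fold change 0.67, SE 0.13, adjusted p = 0.00466). Leptomeningeal markers gave 3 lower of 20 (2 without trained library 2 or 3 or untrained library 1 or 2 and 5 without trained library 1), led by Ptgds, prostaglandin D2 synthase (chromosome 2, 25466709 to 25470046), with values of 899.8, 792 and 839.9 in trained and 1811, 1627 and 1715 in untrained libraries. All trained libraries were lower (log2 fold change -1.02, SE 0.065, adjusted p = 1.97e-08). The other leptomeningeal genes were less uniform: Slc13a4 differed by -1.32 (SE 0.34, adjusted p = 0.0277), with an adjusted p of between 0.0725 and 0.17 without trained 2, trained 3, untrained 1 or untrained 2, and Igf2 by -0.15 (SE 0.22, adjusted p = 0.776). Ttr (transthyretin), a protein made by the choroid plexus, was at 2008, 63.0 and 62.2 in trained and 772, 863 and 621 in untrained libraries, with 1 trained library above and the others below all untrained ones. Immature neuron and progenitor markers gave 3 lower of 13 (1 without untrained library 1 and 5 without untrained library 3). Igfbpl1, of migrating neuroblasts, was at 10.2, 5.66 and 3.13 in trained and 33.2, 31.2 and 26.1 in untrained libraries and the proliferation marker Mki67 at 18.7, 8.26 and 12.5 in trained and 53.3, 49.4 and 33.5 in untrained libraries. Both were lower in all trained libraries at low values (log2 fold change -2.03, SE 0.41, adjusted p = 0.00471 for Igfbpl1 and -1.68, SE 0.33, adjusted p = 0.0038 for Mki67), with an adjusted p of 0.055 without untrained 1 for Igfbpl1 and 0.0528 without untrained 1 for Mki67. Of 24 interneuron markers 1 was called, Reln (0 without trained library 2 or untrained library 1 and 2 without untrained library 2), and Gad1, which makes GABA, differed by 0.025 (SE 0.059, adjusted p = 0.873). Granule cell markers gave 2 higher and 1 lower of 16, markers of subiculum, cortex and thalamus 1 each way, and blood markers 1 higher of 4.

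The difference between trained and untrained mice in CA1 was then tested against the same difference in CA3 and in DG, in one fit of all 16 libraries. Of 14673 genes, 404 (2.75%) had an effect in CA1 that differed from the effect in DG, 1.2% higher and 1.55% lower in CA1, and 4 (0.0273%) one that differed from CA3, of which Ncald was higher in CA1 (0.00682%). The number against DG was 102 without untrained library 1 and between 187 and 414 without any other single CA1 library. The number against CA3 was 0 without trained library 1, trained library 3 or untrained library 3, and 13 without untrained library 2. At an unadjusted p under 0.05 these limma fits had 1020, 880, 846 and 1176 genes, and the fit of all libraries had 985. The titles give libraries of the 3 subregions the same numbers, so the 16 libraries come from 6 animals as labelled, which that fit takes as independent. With same-numbered libraries joined as 1 animal, the fit had 407 genes against DG and 4 against CA3. The labelled numbers did not match in sex-linked transcripts throughout: CA3 untrained library 1 was high in Xist (10587), whereas CA1 untrained library 1 (26.1) and DG untrained library 1 (25.5) were low. Without that CA3 library, 402 genes differed from DG and 1 from CA3, with 1 untrained CA3 library left and assumed to vary like the others. That gene was Adgrl2, named for this count, at 201 in the CA3 library left out and 76.8 in the other untrained one. The number of genes listed at 0 also ran in opposite directions: it was 7567 to 8636 in untrained and 3479 to 5944 in trained DG, against 3124 to 5425 in untrained and 8323 to 9759 in trained CA1, and its part in these differences was not tested. In CA3 it was 3578 to 5659 in untrained and 3171 to 8692 in trained libraries. Some genes had differences of opposite sign in CA1 and DG. Atn1, the atrophin transcriptional corepressor, differed by 0.33 in CA1 and -0.40 in DG, and Map1b, a microtubule protein, by 0.16 and -0.29. Atn1 was at 1250.3 to 1305 in untrained DG and 1264 to 1320 in trained CA1, and at 947 to 1002 in trained DG and 945 to 1093 in untrained CA1. Slc7a11 (-0.61) and Homer1 (-0.59) were lower in CA1, with differences of 0.13 and 0.067 in DG, and Stac2, an adaptor of calcium channels, was at 0.70 in CA1 and -0.11 in DG. The 4 genes that differed from CA3 were Zfp462, Galnt9, an enzyme that starts mucin-type glycosylation and whose CA1 call had an adjusted p of between 0.0517 and 0.11 without trained 1, trained 2, trained 3, untrained 1 or untrained 3, Snhg11, a neuronal snoRNA host transcript, and Ncald (neurocalcin), a calcium sensor. Ncald was at 5778, 5739 and 5959.5 in trained and 4508, 4812 and 4325 in untrained libraries in CA1, all higher (log2 fold change 0.36, SE 0.047, adjusted p = 0.000112), and Snhg11 was at 6431, 7053 and 7083 in trained and 6555, 7084 and 7308 in untrained libraries, which overlapped.

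**Figure D5:**
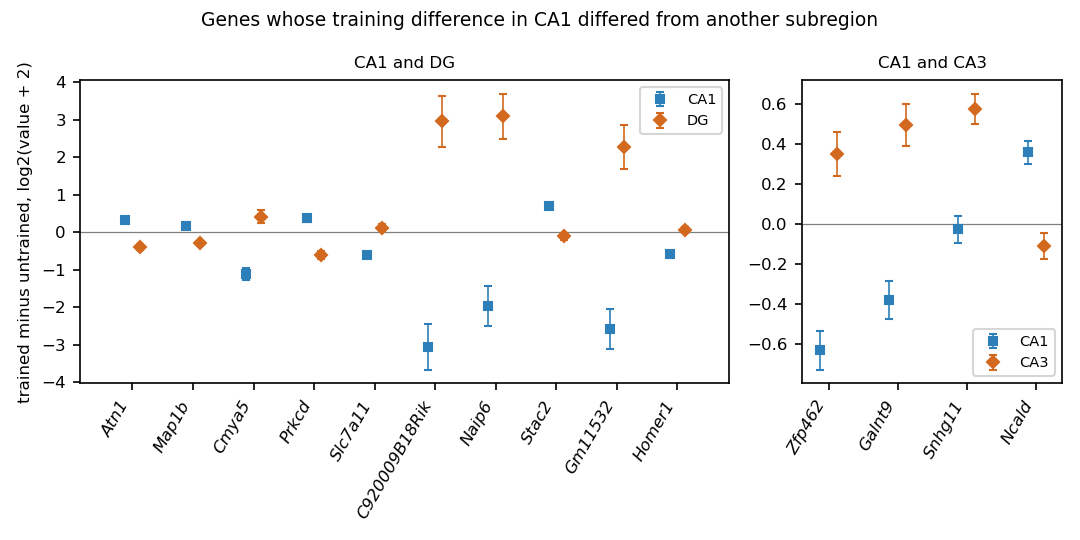
Difference between trained and untrained libraries on log2(value + 2) in CA1 (squares) beside DG (left) or CA3 (right, diamonds) for genes whose differences were not equal in the limma interaction test, with error bars of 1 SE. The CA1 squares lie above 0 for Atn1, Map1b, Prkcd and Stac2 and below 0 for Cmya5, Slc7a11, Homer1, Zfp462 and Galnt9, and Prkcd was not called in CA1 alone (adjusted p = 0.0641).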

How the data were processed

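Paired-end reads of rRNA-depleted libraries were aligned by the authors with STAR to the mouse genome, given as GRCm38 in the labels, quantified per gene and normalized with DESeq2. The deposited values are a signal, normalized estimated counts that are not whole numbers, for 24972 genes in 16 libraries, so no count model was used here. No columns of the authors' own comparisons were used. The 26 symbols turned into dates by a spreadsheet are not reported. Positions were those of GRCm38 and were found for 98.2% of symbols.

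For CA1, limma 3.58.1 in R 4.3.3 was run on log2(value + 2) of 6 libraries with its trend and robust options. Benjamini-Hochberg adjustment covered the 13588 genes with a value of at least 10 in at least 3 libraries, at a threshold of 0.05. Tests are two-sided. Interactions were fitted over all 6 groups of 16 libraries, with at least 10 in at least 2 libraries (14673 genes). The depth of each library is not given in the sources used here.

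Named genes were the sex-linked ones, the 12 largest and 8 smallest-p genes in each direction, up to 6 called members per list and direction with the smallest adjusted p, up to 3 members not called with the highest values, and the 8 first genes of each interaction. Genes on a short list of those the study singles out were left out of these choices. Called members of a list beyond these are named without single values. Muc5b and Xirp2 were chosen after their values were seen. Some genes are counted in the lists but not reported here. The members, lists and tests were chosen with earlier results of these data known. Other pseudocounts, filters, scalings, a GC and length correction, array weights, a replicate block, a sex-linked score and leaving out each CA1 library were tried. Joining same-numbered libraries as 1 animal and leaving out CA3 untrained library 1 were added after the data were seen. The fit was tested on simulated data.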

Additional observations from a re-analysis of the deposited data

Results flagged for a closer look

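The effect of training in CA1 differed from that in DG, by the limma interaction test, for 404 genes, and from that in CA3 for 4 genes. Against DG the first genes on the log2 scale (CA1 effect minus DG effect) were Atn1 (0.7313), Map1b (0.4467), the muscle-type protein gene Cmya5 (-1.535), the protein kinase C gene Prkcd (0.9685), Slc7a11 (-0.7352), Stac2 (0.8083) and Homer1 (-0.6572). In untrained CA1, Cmya5 lay above all 13 other libraries, at 145 to 156 against 54.9 to 109. C920009B18Rik (-5.998), Naip6 (-5.058) and Gm11532 (-4.853) were also among the first 10 by p. All 3 were listed between 0 and 0.93 in the untrained DG libraries and between 0 and 4.94 in the trained CA1 libraries, which are those of the 2 subregions with the most genes at 0 (7567 to 9759, against 3124 to 5944 in untrained CA1 and trained DG). The part of this in the differences was not tested. With values this low, these differences of log2(value + 2) depend on the added 2 and are no fold changes. Naip6 belongs to a family of near-identical copies between which reads can be shared. Against CA3 the differences were -0.984 for Zfp462, -0.876 for Galnt9, -0.6021 for Snhg11 and 0.4676 for Ncald. For Snhg11 the effect lay in CA3 (0.58) and was -0.026 in CA1.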

How the results depend on the processing

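With other pseudocounts, stricter filters, scalings, no robust estimation, GC and length correction or one fit of 16 libraries, the number of genes called in CA1 stayed within 1.5 times 710. Without a filter on low values 1877 genes were called, of which 1325 were lower, and with array weights 1149 (780 higher and 369 lower). With a sex-linked score in one fit of 16 libraries limma called 0, 0 higher and 0 lower, with 1180 genes at an unadjusted p under 0.05. The slope of the score came only from differences within groups, so this fit cannot decide what the score contributes. That fit also turned the sign of Tshz2 (-0.5143), Tanc1 (-0.06836), Adgrl1 (-0.003775), Cacna1h (-0.1817), Unc80 (-0.03227), Sorcs3 (0.008093), Nrg3 (-0.07485), Arid1b (-0.02704) and Kdm5c (-0.0272), and removing GC and length trends turned Cox6a1 (-0.04949). Leaving out 1 CA1 library gave 339 to 905 genes called, 245 to 674 higher and 94 to 234 lower, with the lowest numbers without untrained library 1 and, for 392 called, trained library 2. For CA1 against DG the count was 2039 with no filter, 200 with at least 10 in every library, 158 with a mean of at least 50 and 102 to 414 with 1 library left out. For CA1 against CA3 it was 7 with upper-quartile scaling, 2 with no robust estimation, 86 with array weights, 9 with GC and length removed, 9 with the replicate block, 0 to 13 with 1 CA1 library left out and 1 without CA3 untrained library 1. With same-numbered libraries taken as 1 animal, as a random block with an estimated correlation of 0.0068, the counts were 407 against DG and 4 against CA3. These last fits were chosen after the data were seen. The cause of these shifts was not tested, except that a filter changes how many genes are tested.

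Between trained and untrained mice a shared number names different animals, and such CA1 pairs did not deviate together (correlations 0.0097, 0.0024 and -0.0044). With the replicate block 559 genes were called in CA1, 382 higher and 177 lower, and 366 differed between CA1 and DG. Of 211 named genes called, 112 stayed called whichever CA1 library was left out. The depth is only estimated, and genes at values under 50 rest on few reads, above all in trained library 3, which had the lowest estimate (about 2550000 reads).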
